A study of Mus musculus with 6 samples.

Results

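The genes described here are 37 genes of purine and pyrimidine nucleotide synthesis, among 41079 genes listed for D10 T cells. D10 is a cloned mouse helper T cell line derived from lymph node, per the labels, and each library is a bulk RNA sample. Poly(A)+ RNA was sequenced from 3 cold-acclimated replicates, cultured for 24 h at 26°C, and 3 non-acclimated replicates, cultured for 24 h at 37°C. Both conditions shared the same cell line and the same culture medium, no genotype differed between them, and the only labelled difference was temperature. The comparison asks how the transcripts of nucleotide synthesis stood after cold acclimation, at the steps that make ribonucleotides and at those that make deoxyribonucleotides. Of the 37 genes, 25 belong to ribonucleotide steps, 10 to deoxyribonucleotide steps and 2 to folate metabolism. The members were found by their symbol in the table for 34 genes, and Adss, Ctps and Hprt were found under their current names Adss2, Ctps1 and Hprt1 by NCBI gene number. All 37 passed the filter of a mean TPM of at least 1, where TPM is transcript abundance corrected for gene length and library total, and this filter left 12227 genes for testing.

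Nucleotides are made along routes that meet at 5-phosphoribosyl-1-pyrophosphate (PRPP). The purine ring is built on PRPP up to IMP, which is then turned into AMP or GMP. The pyrimidine ring is built first, joined to PRPP, and completed as UMP, from which UTP and CTP follow. Salvage enzymes return free bases and nucleosides to the pool. Ribonucleotides serve RNA synthesis and energy metabolism at all times, whereas deoxyribonucleotides are made from them by ribonucleotide reductase, mostly when DNA is copied. Activated T cells depend on these routes for clonal expansion, and several drugs that restrain lymphocytes act on them.

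The main result was a difference between the branches that depended on the replicate. In replicates 1 and 2 most deoxyribonucleotide genes stood at less transcript at 26°C, whereas in replicate 3 they were close to the median of all genes, and the ribonucleotide genes stayed near that median. On log2(TPM + 1), the median difference between cold-acclimated and non-acclimated libraries was -1.20 for the 10 deoxyribonucleotide genes, -0.22 for the 25 ribonucleotide genes and -0.34 for all 12227 tested genes. By limma on this scale, 2 of the 37 members were called downregulated, Dhodh and Samhd1, where 16% of all tested genes were, and 0 were called upregulated, where 2.63% of all tested genes were. A gene was called when its Benjamini-Hochberg adjusted p over all tested genes was under 0.05 and the log2 difference was 1 or more in size. On the adjusted p alone 3 members were lower, where 17.4% of tested genes were, and 0 were higher, where 3.3% were. The limma voom fit on reads recovered from the TPM called the same 2 genes, where 13.9% of tested genes were called down and 3.34% up. At an unadjusted p under 0.05 stood 13 members, 0 of them higher in the cold. For counts at an unadjusted p, here and below, the share over all tested genes was not computed, so no excess is read from them. With the replicate block 21 members stood at an unadjusted p under 0.05, 2 of them higher, and 14 were lower on the adjusted p alone, where 29% of tested genes were, with 0 higher, where 6.89% were. The share of members called in the fit without the block was below the background, so its counts show no excess of change among the members. With the block 10 of the 37 were called downregulated, where 21.9% of tested genes were, and 0 upregulated, where 3.75% were. The share called down was then above the background, and this difference was not tested.

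The scale of comparison matters for these counts. TPM gives every library the same total, and the median tested gene stood at -0.34 on it, with 1954 genes called down and 321 up. Median of ratios scaling, which the authors applied to read counts in their own test with DESeq2, was applied here to the TPM before limma. With it the median tested gene stood at 0.03, with 1052 called down and 840 up. At the same thresholds the paper reported more genes upregulated than downregulated, among a larger set of detected genes. Both fits given here called more genes down than up. The scaling shifts the genes of a library together, so 9 members with differences between -0.39 and -0.06 took the opposite sign under it, namely Gart, Paics, Adss, Impdh1, Aprt, Guk1, Nme1, Cmpk1 and Rrm2b. Values are given for these 9 without reading a direction. Overlap between conditions and differences within a replicate are given on TPM as deposited, and were not read under this scaling. With this scaling 0 members were called by limma in either direction, where 8.6% of tested genes were called down and 6.87% up. Under it 6 members had an unadjusted p under 0.05, 4 of them higher in the cold and 2 lower. With this scaling and the replicate block together the number was 19, with 8 higher and 11 lower.

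Some properties of the libraries bear on every result. The read numbers recovered from the TPM ranged from 16899628 to 31290854 per library, and every member had at least 150 reads in every library. Libraries with the same replicate number deviated together, so the fit with the replicate as a block is given beside the calls it changes. The cold-acclimated library of replicate 3 stood closer to its own 37°C library than the others did, with a Pearson correlation across genes of 0.945, against 0.887 in replicate 1 and 0.868 in replicate 2. The summed level of 12 T cell markers lay between 2969 and 4615 TPM, with 0 of the 11 tested ones called and with Cd5 listed at 0 in all libraries but cold-acclimated replicate 3, where it was 0.0454 TPM. Within this sum some markers differed by replicate. Trac, the constant part of the T cell receptor alpha chain, was at 14.96 and 12.8 TPM in replicate 2 at 37°C and 26°C and at 129 to 207 TPM in the other libraries, and Cd28 and Cd3d were also lowest in replicate 2 in both conditions. Cd4, the coreceptor named in the label, stood at 1.09, 0.04 and 310 TPM in non-acclimated replicates 1, 2 and 3 and at 1.299, 0.35 and 328 TPM after cold acclimation, so it was near 0 in replicates 1 and 2 of both conditions. The 3 replicate numbers differed in these markers although the labels name 1 cloned line, and whether they came from the same stock was not tested. Per the labels, RNA was extracted in an old and a new batch, with no statement of which library came from which. Whether batch or Cd4 level had a part in the results was not tested. In bulk RNA, fewer cells of a kind and less RNA per cell cannot be told apart.

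**Figure D1:**
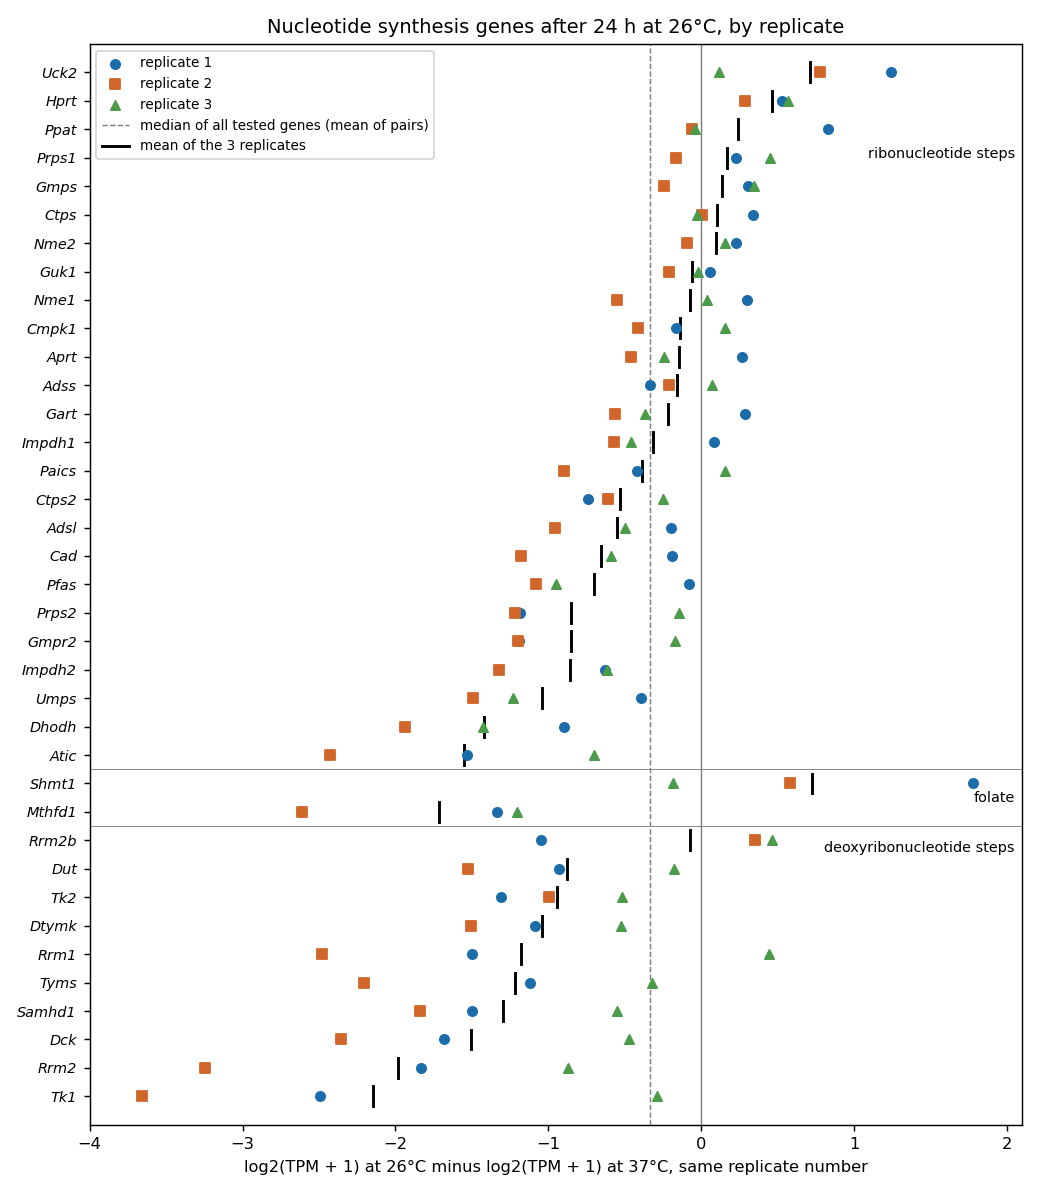
The difference in log2(TPM + 1) between the 26°C and the 37°C library of the same replicate number is plotted for all 37 genes, with circles, squares and triangles for replicates 1, 2 and 3, a black bar for their mean and a dashed line at -0.34, the median over all tested genes. Among the deoxyribonucleotide genes at the bottom, circles and squares lie far to the left except for the square of Rrm2b at 0.35, and triangles lie between -0.87 and 0.46.

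Ribonucleotide reductase converts ribonucleotides into deoxyribonucleotides, with a large catalytic subunit (Rrm1) and a small subunit, either the replication-linked Rrm2 or the p53-inducible Rrm2b. Rrm2 stood at 198, 239 and 519 TPM in non-acclimated replicates 1, 2 and 3 and at 54.7, 24.3 and 284 TPM in cold-acclimated replicates 1, 2 and 3. It was lower at 26°C in all 3 replicates, but the groups overlapped because replicate 3 had the highest level in both conditions. Its log2 fold change was -1.98 ± 0.83 (SE, n = 3 per group), with an adjusted p of 0.125 in limma and of 0.0145 with the replicate block, under which it was called. Of the Rrm2 transcript, 41.8% matched other annotated genes at 97% identity or more, so reads may be shared.

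Rrm1 stood at 178, 229 and 179 TPM at 37°C and at 62.2, 40.4 and 244 TPM at 26°C. The difference therefore ran down in replicates 1 and 2 and up in replicate 3, and the fit gave -1.18 ± 0.60, with an adjusted p of 0.195. Rrm2b, which has 113 bases in common with a noncoding gene on the other strand, stood at 24.1, 64.0 and 51.9 TPM at 37°C and at 11.2, 82.1 and 72.0 TPM at 26°C. The ratio of Rrm2 to Rrm2b was 8.19, 3.73 and 10.01 at 37°C and 4.90, 0.296 and 3.94 at 26°C. It was lower at 26°C within each replicate, and in cold-acclimated replicate 2 the Rrm2b transcript exceeded that of Rrm2.

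Thymidine nucleotides are made from dUMP by thymidylate synthase (Tyms), are phosphorylated by thymidylate kinase (Dtymk), and are kept apart from uracil by dUTPase (Dut). Tyms stood at 33.7, 43.2 and 60.2 TPM at 37°C and at 14.96, 8.58 and 47.9 TPM at 26°C. The difference was -1.22 ± 0.57, with an adjusted p of 0.163, or 0.0389 with the replicate block, where it was called. Dtymk stood at 47.6, 44.9 and 54.5 TPM at 37°C and at 21.9, 15.2 and 37.5 TPM at 26°C, so the groups did not overlap. Its difference was -1.04 ± 0.34, with an adjusted p of 0.0644, and of 0.0215 with the replicate block, where it was called. Dut ranged from 150 to 192 TPM at 37°C and from 66.2 to 150 TPM at 26°C.

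Deoxynucleosides are salvaged by thymidine kinase 1 (Tk1), a cytosolic enzyme of S phase, by thymidine kinase 2 (Tk2), its mitochondrial counterpart, and by deoxycytidine kinase (Dck). Tk1 stood at 83.1, 114 and 129 TPM at 37°C and at 13.9, 8.15 and 105 TPM at 26°C. The 26°C level was 0.0713 of the 37°C level in replicate 2, 0.167 in replicate 1 and 0.816 in replicate 3. The log2 fold change of Tk1, -2.15 ± 0.82, was the most negative of the 37 members, and its adjusted p was 0.0991, which became 0.0286 with the replicate block. Tk1 overlaps Afmid by 585 bases on opposite strands, and 19.6% of its transcript matched other genes.

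Dck stood at 58.5, 85.7 and 99.4 TPM at 37°C and at 17.5, 16.0 and 71.3 TPM at 26°C, a difference of -1.50 ± 0.55 with an adjusted p of 0.0906, and of 0.0205 with the replicate block. Tk2 stood at 40.8, 35.1 and 17.4 TPM at 37°C and at 15.8, 17.1 and 11.8 TPM at 26°C, without overlap. Its difference was -0.94 ± 0.36, with an adjusted p of 0.0954. At 37°C replicate 3 had the highest Tk1 level and the lowest Tk2 level of the 3 replicates.

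Samhd1, on chromosome 2 at 156939454 to 156977016 (GRCm39, minus strand), encodes the enzyme that hydrolyses deoxynucleoside triphosphates and so opposes their synthesis. It stood at 87.1, 74.1 and 41.8 TPM at 37°C and at 30.2, 19.96 and 28.2 TPM at 26°C, with no overlap between the conditions. Samhd1 fell by 1.297 ± 0.33 on the log2 scale (SE, n = 3 per group, 95% interval -2.06 to -0.53), with an adjusted p of 0.0326. The call remained in 2 of the 6 fits that left out 1 library. It was lost without non-acclimated replicate 1 or 2 and without cold-acclimated replicate 1 or 2, and the adjusted p over the 6 fits ran from 0.0180 to 0.116. With median of ratios scaling it was not called, at -0.89 and an adjusted p of 0.0944.

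**Figure D2:**
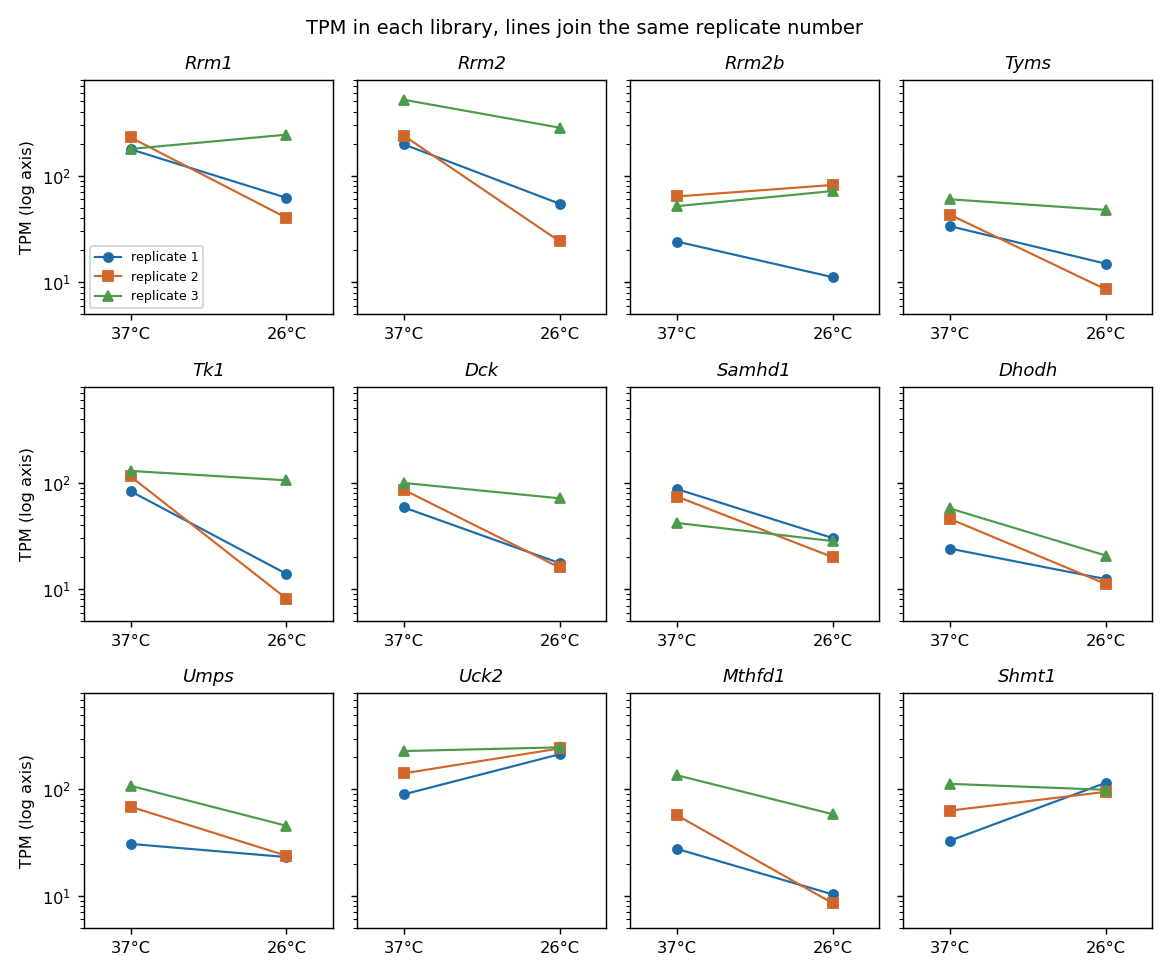
TPM on a log axis is shown for 12 members in each of the 6 libraries, with a line from the 37°C to the 26°C library of each replicate number. For Tk1 and Rrm1 the lines of replicates 1 and 2 descend steeply and that of replicate 3 is nearly level or ascends, whereas for Dhodh all 3 lines descend, from between 24.0 and 57.2 TPM to between 11.2 and 20.7 TPM.

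Counted over the branch, 9 of the 10 deoxyribonucleotide genes were lower by at least 1 on the log2 scale in replicate 1, 8 in replicate 2 and 0 in replicate 3. Among all tested genes such a difference was seen in 26.5%, 30.8% and 15.3%. The median over the branch was -1.41, -2.02 and -0.40 in replicates 1, 2 and 3, and the summed level of the 10 genes was 900, 1122 and 1322 TPM at 37°C and 320, 298 and 1051 TPM at 26°C. Set against the corresponding median over all tested genes, the branch stood at -1.08, -1.58 and -0.16 in the 3 replicates. The exceptions in replicates 1 and 2 were Dut, at -0.93 in replicate 1, and Rrm2b and Tk2, at 0.35 and -0.998 in replicate 2.

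In limma, 1 of the 10 was called, where 16% of tested genes were called down. With the replicate block 6 were called, where 21.9% of tested genes were called down, and without both libraries of replicate 3 the number was 9, where 25.3% were. Higher genes were called among 3.75% and 5.34% of tested genes in these fits, and 0 of the 10 in either. The genes called with the block were Rrm2, Tyms, Dtymk, Tk1, Dck and Samhd1, and without replicate 3 all but Rrm2b were. The fit without replicate 3 rests on 2 libraries per condition.

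Among the ribonucleotide genes, dihydroorotate dehydrogenase stood out. Dhodh, on chromosome 8 at 110319876 to 110335330 (GRCm39, minus strand), encodes the pyrimidine enzyme of the inner mitochondrial membrane, which passes electrons to the respiratory chain. It stood at 24.0, 45.6 and 57.2 TPM at 37°C and at 12.4, 11.2 and 20.7 TPM at 26°C, without overlap. Dhodh fell by 1.42 ± 0.38 on the log2 scale (SE, n = 3 per group, 95% interval -2.31 to -0.53), with an adjusted p of 0.0390. The call remained in 2 of the 6 fits that left out 1 library. It was lost without non-acclimated replicate 2 or 3 and without cold-acclimated replicate 1 or 2, with adjusted p between 0.0205 and 0.129. With median of ratios scaling Dhodh stood at -1.02 with an adjusted p of 0.0798, and with that scaling and the replicate block it was called at an adjusted p of 0.0265.

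The other pyrimidine genes were mixed. Cad, the trifunctional enzyme that opens the route, stood at 94.2, 157 and 344 TPM at 37°C and at 82.3, 68.9 and 228 TPM at 26°C, and its difference of -0.65 ± 0.58 did not pass the test. Umps, which completes UMP, stood at 30.8, 68.8 and 108 TPM at 37°C and at 23.2, 23.8 and 45.6 TPM at 26°C, with a difference of -1.04 ± 0.48 and an adjusted p of 0.159, or 0.0254 with the replicate block, where it was called. On TPM, Cad, Dhodh and Umps all stood lower at 26°C within each replicate. In replicate 1 Cad stood at -0.19 and Umps at -0.40 on the log2 scale. With median of ratios scaling the fitted differences were -0.24 for Cad and -0.63 for Umps, and the replicates were not read singly.

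Uck2, the salvage kinase for uridine and cytidine, ran the other way. It stood at 89.9, 142 and 229 TPM at 37°C and at 214, 243 and 249 TPM at 26°C. The 26°C level was 2.38, 1.71 and 1.08 times that at 37°C in replicates 1, 2 and 3. The log2 fold change was 0.71 ± 0.34 with an adjusted p of 0.174, and 1.12 with median of ratios scaling. It was called upregulated in limma without non-acclimated replicate 3, without both libraries of replicate 3, where the adjusted p was 0.0400, and with median of ratios scaling together with the replicate block, where it was 0.0267. The CTP synthases, which aminate UTP, were at 67.6 to 122 TPM over all libraries for Ctps and at 25.4 to 43.1 TPM for Ctps2, which did not overlap between conditions but missed the threshold, with a difference of -0.53 ± 0.23 and an adjusted p of 0.130.

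At the entry of the purine route, PRPP is made by the synthetases Prps1 and Prps2. Prps1 stood at 128, 191 and 161 TPM at 37°C and at 150, 170 and 221 TPM at 26°C, and Prps2 at 75.5, 69.1 and 73.7 TPM and at 32.7, 29.2 and 66.4 TPM. Prps2 did not overlap between the conditions, though its difference of -0.85 ± 0.33 had an adjusted p of 0.103. The ratio of Prps2 to Prps1 was 0.589, 0.361 and 0.456 at 37°C and 0.218, 0.171 and 0.300 at 26°C, so it also did not overlap.

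The purine ring is then built by Ppat, which commits PRPP to the route, and by Gart, Pfas, Paics, Adsl and Atic. Atic, the bifunctional enzyme of the closing steps to IMP, stood at 218, 289 and 409 TPM at 37°C and at 74.7, 53.0 and 251 TPM at 26°C. Its difference of -1.56 ± 0.56 was the most negative of the ribonucleotide genes, with an adjusted p of 0.0846, or 0.0143 with the replicate block, where it was called. Ppat stood at 73.9, 147 and 175 TPM at 37°C and at 132, 141 and 170 TPM at 26°C. Pfas and Adsl had differences of -0.70 ± 0.31 and -0.55 ± 0.32, and Gart and Paics ranged from 68.0 to 171 TPM and from 203 to 449 TPM over all libraries. The fitted difference of Ppat was 0.24 ± 0.34, against that of Atic, and the contrast between these genes was not tested. Ppat and Paics overlap by 277 bases on opposite strands, and the strand setting of the counting is not given in the sources used here.

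IMP goes to AMP through Adss and Adsl and to GMP through the IMP dehydrogenases and Gmps. Impdh2, the isoform of proliferating lymphocytes, on chromosome 9 at 108437635 to 108442776 (GRCm39, plus strand), stood at 265, 363 and 296 TPM at 37°C and at 171, 144 and 193 TPM at 26°C, without overlap. Its difference of -0.86 ± 0.23 had an adjusted p of 0.0387 but stayed under the size required for a call. Of its transcript, 80.1% matched a pseudogene at 97% identity or more, so its reads may be shared. Impdh1 stood at 141, 214 and 150 TPM at 37°C and at 149, 144 and 109 TPM at 26°C, and the ratio of Impdh2 to Impdh1 overlapped between the conditions.

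Gmps, which makes GMP, ranged from 53.3 to 68.7 TPM over all libraries. Gmpr2, the reductase that returns GMP to IMP, had the lowest levels of the 37 genes, with 7.76, 7.76 and 5.79 TPM at 37°C and 2.83, 2.82 and 5.02 TPM at 26°C. Its difference was -0.85 ± 0.30, with an adjusted p of 0.0798. The ratio of Gmps to Gmpr2 was 6.87, 8.21 and 9.30 at 37°C and 23.3, 19.0 and 13.7 at 26°C, without overlap. Gmpr2 overlaps Tinf2 on the opposite strand by 7146 bases, so its level is uncertain if reads were counted without strand.

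None of the 6 genes of purine base salvage and nucleotide phosphorylation was called in limma, where 16% of all tested genes were called down and 2.63% up. Hprt, which salvages hypoxanthine and guanine, stood at 148, 205 and 433 TPM at 37°C and at 214, 250 and 642 TPM at 26°C. It was higher at 26°C in all 3 replicates, but the difference between replicates was wider, and the fit gave 0.46 ± 0.52 with an adjusted p of 0.565. With the replicate block in limma its adjusted p was 0.0888. With the block and median of ratios scaling Hprt stood at 0.87 with an adjusted p of 0.0163, under the size required for a call. Aprt, the adenine counterpart, ranged from 269 to 523 TPM over all libraries. The nucleoside phosphate kinases Guk1, Cmpk1, Nme1 and Nme2 had log2 differences between -0.14 and 0.10. Nme2 had the highest levels of all members, but 48.0% of its transcript matched the readthrough gene Nme1nme2 or pseudogenes, so the division of reads among these copies is uncertain.

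Within each replicate, the median over the 25 ribonucleotide genes was -0.08, -0.57 and -0.15, against -0.32, -0.44 and -0.24 for all tested genes. Their summed level was 3470, 4739 and 5863 TPM at 37°C and 3605, 3451 and 5649 TPM at 26°C. The median over deoxyribonucleotide genes lay below that over ribonucleotide genes by 1.33, 1.46 and 0.25 on the log2 scale in replicates 1, 2 and 3, and by 0.98 when all libraries were fitted. The direction of this difference was shared by the 3 replicates, and its size was not. Because the members were chosen with earlier results of these data known, it is given as a description.

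**Figure D3:**
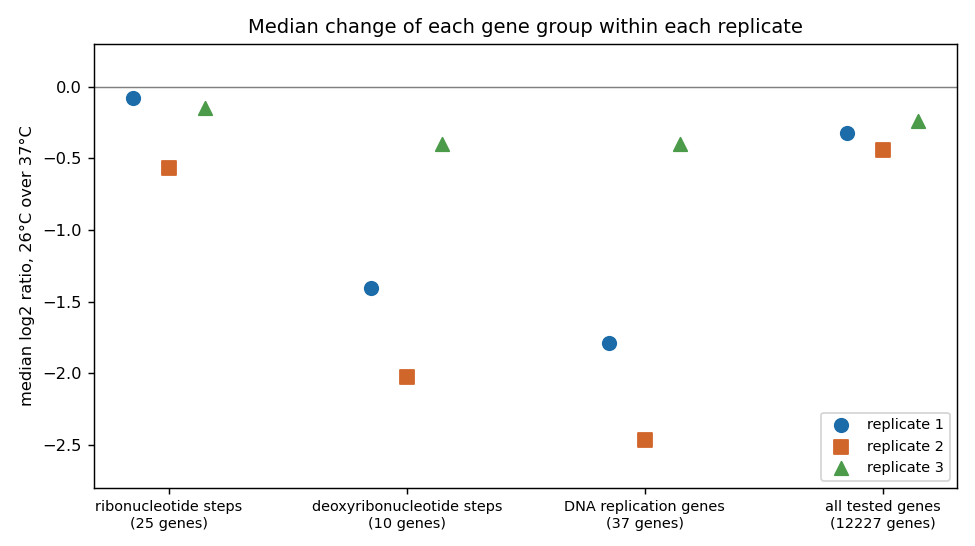
The median log2 ratio of the 26°C to the 37°C library within each replicate is shown for the ribonucleotide, deoxyribonucleotide and DNA replication genes and for all tested genes. In replicates 1 and 2 the deoxyribonucleotide and replication genes lie between -1.41 and -2.46, and in replicate 3 both lie at -0.40.

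Folate enzymes supply the carbon units for the purine ring and for thymidylate. Mthfd1, the trifunctional cytosolic enzyme that makes formyl-folate, stood at 27.7, 57.3 and 136 TPM at 37°C and at 10.3, 8.54 and 58.5 TPM at 26°C, with a difference of -1.72 ± 0.80 and an adjusted p of 0.160, or 0.0104 with the replicate block, where it was called. Shmt1, the cytosolic serine hydroxymethyltransferase, stood at 32.99, 63.3 and 113 TPM at 37°C and at 115, 95.0 and 99.2 TPM at 26°C. At 26°C the 3 libraries were close together, whereas at 37°C they spread. The ratio of Mthfd1 to Shmt1 was 0.839, 0.905 and 1.21 at 37°C and 0.0896, 0.0899 and 0.590 at 26°C, without overlap. Mthfd1 overlaps a noncoding gene on the other strand by 9980 bases.

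**Figure D4:**
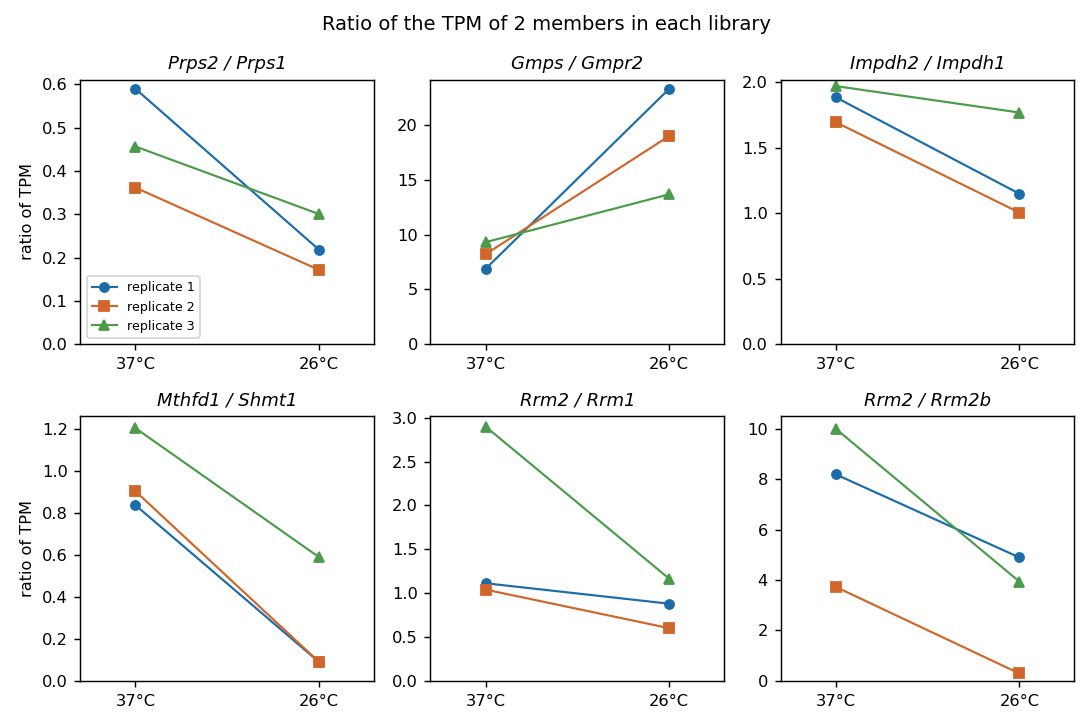
The ratio of the TPM of 2 members is plotted for each library, with lines joining the libraries of a replicate number and each axis starting at 0. The ratios of Prps2 to Prps1, Gmps to Gmpr2 and Mthfd1 to Shmt1 do not overlap between conditions, and the other 3 plotted do. Ratios of Tk1 to Tk2, Ctps to Ctps2, Nme2 to Nme1 and Ppat to Paics were also taken, are not plotted, and overlap. The pairs were chosen by hand, and the share without overlap among pairs of other genes was not computed.

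On TPM, 8 of 37 members were lower at 26°C without overlap between the conditions, where 31.4% of tested genes were. None was higher without overlap, where 9.69% of tested genes were. Median of ratios scaling divides the 37°C libraries by 1.13 to 1.21 and the 26°C libraries by 0.84 to 0.96. Levels without overlap on TPM may therefore overlap under that scaling. The 8 were Prps2, Impdh2, Gmpr2, Dhodh, Ctps2, Dtymk, Tk2 and Samhd1. They include genes of both branches, and Rrm2 and Tk1, with the most negative log2 fold changes, are not among them because of replicate 3. With the replicate block 10 members were called downregulated, where 21.9% of tested genes were, and with the block and median of ratios scaling 5 were called downregulated and 1 upregulated, where 12.4% and 9.23% of tested genes were. The 5 were Atic, Dhodh, Rrm2, Dck and Mthfd1, and the gene called upregulated was Uck2.

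Other genes of the same routes were read from lists. Of 14 tested folate genes outside the members 1 was called, Mthfd2, the mitochondrial enzyme of the formyl-folate route, which stood at 326, 294 and 214 TPM at 37°C and at 103, 102 and 170 TPM at 26°C, a difference of -1.16 with an adjusted p of 0.0311. Of 22 other purine genes 4 were called, all downregulated, close to the 16% of all tested genes called down. Among them, Ak3, the mitochondrial adenylate kinase that uses GTP, fell by 1.45 ± 0.25, and Adal, an adenosine deaminase-like enzyme, was called at -1.31 ± 0.29. Of 9 other pyrimidine genes 1 was called, the mitochondrial UMP-CMP kinase Cmpk2, at 44.5, 53.1 and 9.79 TPM at 37°C and 7.53, 6.78 and 4.93 TPM at 26°C. With the replicate block the called genes numbered 2 among the folate and 7 among the purine genes, where 21.9% of tested genes were called down, and with median of ratios scaling 0 and 2, where 8.6% were. Cmpk2 was not called with that scaling or with voom, where its adjusted p was 0.0935.

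The most negative fold change among called genes of these lists was that of a mitochondrial salvage kinase. Dguok, the mitochondrial deoxyguanosine kinase, stood at 29.4, 14.2 and 14.1 TPM at 37°C and at 1.37, 0.90 and 3.38 TPM at 26°C. It fell by 2.82 ± 0.43, with an adjusted p of 0.00869, and stayed called with median of ratios scaling and in all 6 fits that left out 1 library, with adjusted p up to 0.0443. Unlike Tk1 and Rrm1, it stood far lower in cold-acclimated replicate 3 as well. Of 10 tested genes of the deoxynucleotide pool outside the members, 2 were called downregulated, where 16% of all tested genes were. The 2 were Dguok and Nudt5, a hydrolase of damaged and sugar-linked nucleotides. Hddc2, a nucleotidase for deoxynucleoside monophosphates, rose from 5.09, 6.88 and 6.51 TPM to 14.6, 14.3 and 10.2 TPM. Its difference of 0.96 ± 0.26 had an adjusted p of 0.0406 and lay under the size required for a call, and with median of ratios scaling it was called at 1.33.

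DNA replication genes, too, were lower mostly in replicates 1 and 2. Of 37 tested, 28 were lower by at least 1 on the log2 scale in replicate 1, 32 in replicate 2 and 2 in replicate 3, where 26.5%, 30.8% and 15.3% of tested genes were, and their medians were -1.79, -2.46 and -0.40. In limma 8 were called, all downregulated, with 24 called in the fit with the replicate block, 29 without replicate 3 and 2 with median of ratios scaling. The shares of all tested genes called down in these 4 fits were 16%, 21.9%, 25.3% and 8.6%. Pold3, an accessory subunit of DNA polymerase delta, fell by 1.59 ± 0.32, and Chaf1a, a subunit of the histone chaperone that follows the fork, fell by 2.28 ± 0.51. The part of the share of replicating cells in the result for the deoxyribonucleotide genes was not tested.

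Genes for known regulators of these routes were examined next. E2F proteins drive the genes of S phase, and Myc drives many genes of nucleotide synthesis. E2f1 stood at 30.03, 33.9 and 35.1 TPM at 37°C and at 10.2, 5.74 and 17.3 TPM at 26°C, and fell by 1.61 ± 0.37 with an adjusted p of 0.0246. E2f2 and E2f3 were also called downregulated, at -2.09 and -1.42, as were Rb1, the restraint of E2F, at -1.01 and Trp53, which encodes p53, at -1.74. E2f7 and E2f8, repressors of the family, were not called, at -0.99 and -1.23 with adjusted p of 0.206 and 0.0794. Myc stood at 168, 413 and 621 TPM at 37°C and at 369, 873 and 430 TPM at 26°C, a difference of 0.56 ± 0.53 with an adjusted p of 0.482. Myc was higher at 26°C in replicates 1 and 2 and lower in replicate 3. A link between the levels of these regulators and those of the members was not tested. Of 13 tested regulators, 5 were called in limma, where 16% of tested genes were called down, and 2 of them, E2f1 and Trp53, with median of ratios scaling, where 8.6% were. For the called genes outside the members named here other than Dguok, leaving out 1 library lost the call in at least 3 of the 6 fits, with the highest adjusted p between 0.0615 for Ak3 and 0.148 for Cmpk2.

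Because these regulators bind short motifs, the 250 bases before each RefSeq gene start (GRCm38.p6) were searched on both strands. Windows were found for 34 members, and Dhodh, Pfas and Rrm2b were not searched. The E-box CACGTG, the letters Myc and related factors bind, was in 6 of the 34 members, or 17.6%, against 6.86% of all 27025 genes with a window and 9.71% of the tested genes with one. The E2F letters TTTCGCGC, TTTGGCGC or TTCCCGCC were in 3 of the 34, or 8.82%, against 2.85% and 5.61%. CCAAT, the letters of NF-Y, was in 32.4% of the members, against 37.5% and 40.2%. A match is only a description of these letters in this window. The stretches below, each 30 bases read 5′ to 3′ on the gene's strand with the motif in capitals, show the E-box of genes from both branches, and their positions on GRCm39 follow.
Paics: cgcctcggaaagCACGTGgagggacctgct
Atic: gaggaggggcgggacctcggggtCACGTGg
Impdh2: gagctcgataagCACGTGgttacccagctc
Tyms: aaccacttctgtCACGTGggggcggggtct
Dtymk: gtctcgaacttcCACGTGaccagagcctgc

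They lie at chr5:77098934-77098963 (plus strand) for Paics, chr1:71596285-71596314 (plus strand) for Atic, chr9:108437513-108437542 (plus strand) for Impdh2, chr5:30278667-30278696 (minus strand) for Tyms and chr1:93729787-93729816 (minus strand) for Dtymk. The remaining gene with an E-box was Nme1. Within this group Atic, Tyms and Dtymk were called downregulated with the replicate block, where 21.9% of tested genes were, and Impdh2, Paics and Nme1 were not. Without the block none of these genes was called, and Impdh2 passed the adjusted threshold alone. A link between the letters and these levels was not tested.

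The E2F letters lay in Ppat, Rrm1 and Mthfd1, 1 gene of each kind of step. They are shown only as a description of these windows. E2f1, E2f2 and E2f3 were called downregulated on the TPM scale, and only E2f1 of them with median of ratios scaling. A link between these letters and the levels of Ppat, Rrm1 and Mthfd1 was not tested.
Ppat: tgtccccaggcTTCCCGCCgcgcaggcgcg
Rrm1: aggagaactcgTTCCCGCCaggtccgcttt
Mthfd1: gctaaaagcgaGGCGGGAAgctcccggctc

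Their positions are chr5:77099457-77099486 (minus strand), chr7:102090824-102090853 (plus strand) and chr12:76301941-76301970 (plus strand), and in Mthfd1 the letters run on the other strand. Ppat held a further E2F match, not shown, at -159 to -152 from the start and on the other strand. Of the 3 genes, Mthfd1 was lower at 26°C in every replicate, Rrm1 was lower in replicates 1 and 2, and Ppat was higher in replicate 1 and level in replicates 2 and 3. Among the 9 deoxyribonucleotide genes with a window, 1 held the E2F letters and 2 held the E-box, and Tk1, Rrm2 and Dck held neither.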

How the data were processed

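RNA-seq of 6 libraries was analysed, 3 per condition, which the study's methods describe as independently prepared. Per the labels and the study's methods, the authors used FastQC 0.11.7, Trimmomatic 0.38, HISAT2 2.1.0 on GRCm39 and featureCounts 1.6.3, and deposited TPM values, that is counts divided by gene length and scaled to a common total. For the annotation release and the strand setting, nothing is stated in the sources used here. The deposited TPM values were whole multiples of a step for each gene, so whole reads were recovered for 100% of the 21195 genes above 0, within a tolerance of 0.001 reads.

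limma 3.58.1 (R 4.3.3, mean-variance trend) was run on log2(TPM + 1) over the genes averaging 1 TPM or more, with Benjamini-Hochberg adjustment over all of them. The pseudocount of 1 makes the fold change of low genes smaller. The study's thresholds were kept, 0.05 for the adjusted p and 1 for the absolute log2 difference. Medians, ratios and counts came from Python 3.11.15 with numpy 2.4.6 and pandas 2.3.3, and the fits were tested on simulated data. Alternatives were a pseudocount of 0.1, no filter, median of ratios scaling, limma voom on the recovered reads, the replicate as a block, and leaving out each library or both of replicate 3. Deviations from the condition mean correlated between 0.48 and 0.51 for libraries of the same number and between -0.41 and 0.02 otherwise, so the numbers pair the libraries.

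Lists of related genes were written from general knowledge, and members and lists were chosen with earlier results of these data known. Genes named outside the members were, per list, the 2 with the smallest p in each direction that passed the adjusted threshold, any regulator, and markers. Transcripts were compared on GENCODE vM39 to find shared sequence, and promoter windows are from RefSeq. Protein sequences were not used here.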

Additional observations from a re-analysis of the deposited data

How the results depend on the processing

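The count of 2 members called downregulated was the same with a pseudocount of 0.1, with voom on the recovered reads and over the 34 members found by symbol. It was 0 without the filter on low values, where more genes are tested. With median of ratios scaling it was 0, where 8.6% of tested genes were called down. Without both libraries of replicate 3 it was 14, where 25.3% were. When 1 library was left out it lay between 0 and 13, with the 13 found without cold-acclimated replicate 3. The share over all tested genes was not computed for the fits without the filter, with a pseudocount of 0.1 or with 1 library left out. With the replicate block the count was 10, where 21.9% were called down. With the block and median of ratios scaling together, an alternative chosen after seeing the data, it was 5, where 12.4% were. The count of 0 upregulated members became 1 in that last fit (Uck2), where 9.23% of tested genes were called up. It was 2 without replicate 3 (Uck2 and Shmt1), where 5.34% were, and lay between 0 and 1 when 1 library was left out. The block also raised the members at an unadjusted p under 0.05 from 13 to 21, where the share over all tested genes was not computed. The medians are the same with the block by construction.

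Relative to all tested genes, the ribonucleotide median of 0.12 was -0.15 without the filter, because the median of all genes moved, and between -0.077 (without cold-acclimated replicate 3) and 0.18 when 1 library was left out, so its sign is not settled. The deoxyribonucleotide median of -0.86 lay between -1.23 and -0.58 when 1 library was left out and at -1.29 without replicate 3. The difference of the 2 medians, -0.98, lay between -1.16 and -0.66, and at -1.39 without replicate 3.

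Each member had at least 150 reads per library. With 3 replicates per condition, 1 of which differed from the others, the spread between replicates set the width of the intervals. The labels do not assign the batches of RNA extraction to libraries, so batch cannot be told apart from replicate or from temperature. The cause of the deviation of replicate 3 was not tested.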

Other observations

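Uck1, the paralog of Uck2 and a kinase of the same nucleosides, was named after its values were seen. It stood at 81.0, 87.3 and 70.6 TPM at 37°C and at 123, 123 and 119 TPM at 26°C, without overlap and with little spread at 26°C. Its difference on log2(TPM + 1) was 0.61 ± 0.20 (SE, n = 3 per group), with an adjusted p of 0.0673 in limma, and with median of ratios scaling it was called upregulated at 1.02. Hba-a1, an alpha globin gene, was present in all libraries, at 189, 79.9 and 485 TPM at 37°C and at 84.8, 60.8 and 473 TPM at 26°C, whereas the beta globin genes Hbb-bs and Hbb-bt were listed at 0. Of the 10 B cell markers and 11 macrophage markers, 2 of each list reached a mean of 1 TPM, and their summed levels stayed between 3.50 and 6.17 TPM and between 2.87 and 21.5 TPM over the 6 libraries.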
